A study of Mus musculus with 3 samples.

Results

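Type I interferon response genes are described here in cultures that were driven toward dendritic cells with the growth factor FLT3L. The 9 genes were taken by symbol from the 32285 genes of the count tables: Irf7, Stat2, Isg15, Ifit1, Ifit3, Oasl2, Rtp4, Bst2 and Ifi27l2a. All 9 were found. The list was drawn up with earlier results of these data known. The cells came from wild-type C57BL/6 mice and were cultured under 3 conditions. The control culture had 2 mM glutamine, a second culture had 50 µM glutamine, and the third had 2 mM glutamine with 1 µM DON, a compound that resembles glutamine and inhibits glutamine-consuming enzymes. Each condition was a single library of 10x Genomics 3′ single-cell RNA-seq, in which each counted molecule carries a unique molecular identifier (UMI). With 1 library per condition there was no replicate check and no test, so all intervals below cover counting error only.

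As background, type I interferons bind a receptor made of Ifnar1 and Ifnar2, and the kinases Jak1 and Tyk2 then activate STAT proteins, STAT2 among them. STAT2 acts in a complex with IRF9 that binds the interferon-stimulated response element, a short DNA motif in front of many interferon-induced genes. Plasmacytoid dendritic cells (pDC) are known for a high resting level of IRF7, the factor that drives interferon-alpha genes, and for making large amounts of interferon after viral nucleic acids reach TLR7 or TLR9. Conventional dendritic cells of type 1 (cDC1) cross-present antigen to CD8 T cells, and those of type 2 (cDC2) mainly prime CD4 T cells.

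The promoter letters of the genes are shown first, because several members carry that element close to their start. RefSeq promoters (build GRCm38.p6) were found for 7 of the 9 genes, all but Rtp4 and Ifi27l2a. The ISRE core was searched as GAAA, any 2 bases and GAAA again, on both strands, in the 250 bases before each start, and 978 of 32851 promoters (2.98%) held it. Among the members it occurred 3 times in Isg15 (overlapping), 2 times each in Ifit1, Ifit3 and Bst2 (overlapping in Bst2) and 1 time in Stat2. It was not found in this window for Irf7 or Oasl2. The GAS core, searched as TTCNNNGAA, was in 2306 promoters (7.02%), and of the members it was in Bst2 only, at position -136, overlapping the ISRE match there by its last letters. A match is a description of the letters and no evidence of binding. The stretches below read 5′ to 3′ on the strand of each gene with the matches to the ISRE core in capitals. They lie at chr4:156200849-156200968 (minus strand, Isg15), chr19:34640739-34640858 (plus strand, Ifit1), chr19:34583334-34583453 (plus strand, Ifit3), chr10:128270248-128270367 (plus strand, Stat2) and chr8:71537536-71537655 (minus strand, Bst2).
Isg15: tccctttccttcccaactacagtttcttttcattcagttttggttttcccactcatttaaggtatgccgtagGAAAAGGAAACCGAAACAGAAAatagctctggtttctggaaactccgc
Ifit1: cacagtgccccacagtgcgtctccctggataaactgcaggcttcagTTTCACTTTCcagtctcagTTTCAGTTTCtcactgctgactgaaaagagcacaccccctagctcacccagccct
Ifit3: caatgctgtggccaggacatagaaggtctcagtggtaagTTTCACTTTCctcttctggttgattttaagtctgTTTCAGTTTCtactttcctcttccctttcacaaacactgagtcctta
Stat2: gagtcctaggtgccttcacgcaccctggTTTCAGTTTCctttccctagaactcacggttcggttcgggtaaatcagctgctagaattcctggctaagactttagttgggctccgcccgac
Bst2: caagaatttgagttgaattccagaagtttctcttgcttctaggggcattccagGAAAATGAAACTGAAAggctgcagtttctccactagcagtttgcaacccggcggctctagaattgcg
Counted from the RefSeq start, the first letter of each match lay at -78, -72 and -66 in Isg15, at -104 and -85 in Ifit1, at -156 and -122 in Ifit3, at -222 in Stat2, and at -130 and -124 in Bst2. Ifit1 and Ifit3 both held TTTCACTTTC followed by TTTCAGTTTC, and the Stat2 match was TTTCAGTTTC.

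The 3 libraries held 8962 to 10497 barcodes and 87611658 to 92002827 UMIs. After filters and removal of predicted doublets, 9473 control cells, 9169 cells at 50 µM and 8367 cells with DON were used, with median UMIs per cell of 6642, 7610 and 7910. Between 20 and 31 barcodes were shared by any pair of libraries. Cells were sorted into classes by UMIs of marker genes that left out all 9 members, and 14 classes had at least 50 cells in every library. Cells of the pDC gate, which needed Siglech and 3 further pDC markers, were kept apart as 6 subsets, and another 722 cells of that gate (215 to 258 per library) fell in none of them and enter only whole-library values. The 6 subsets included Ccr9-positive pDC (1428 control cells, 588 at 50 µM, 1175 with DON), pDC with 1 or 2 Ccr9 UMIs and Ly6d-positive Ccr9-negative pDC (211, 457 and 235). Another subset held Apod together with Lefty1 or Klra17, and another was high in MHC class II genes and low in Ly6d. Cycling pDC (555, 1382 and 1004) were the last. The gate was looser for some classes than for others: 49.3% of cDC2 cells, 25.5% of cDC1 cells and 8.07% of pDC carried no more than the least number of markers asked for. Levels are given in CPM, here UMIs scaled to a common UMI total per class, with an exact Poisson 95% interval.

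The 9 genes followed 2 patterns across cell types. Irf7, Stat2, Bst2 and Ifi27l2a were at their highest in pDC, whereas Ifit1, Ifit3, Rtp4 and Oasl2 were high in monocytes or macrophages and cDC2 and low in cDC1. Ifit1, Ifit3 and Rtp4 were low in Ccr9-positive pDC too, while Oasl2 in the control library ranked 3 and 4 of the 14 classes in the Apod and MHC class II-high subsets and 8 in Ccr9-positive pDC. Isg15 lay between these patterns. Over the 44 sums of a class in a library with at least 50 cells, Pearson's r on log2(CPM + 5) was 0.88 for Irf7 with Stat2 and for Irf7 with Ifi27l2a, and 0.82 for Irf7 with Bst2. It was 0.91 for Ifit1 with Rtp4, 0.86 for Ifit1 with Ifit3 and 0.80 for Ifit3 with Rtp4. Between the groups it was -0.03 for Irf7 with Ifit1 and -0.46 for Bst2 with Rtp4. These are descriptions only, since sums of the same library share its depth and sums of the same class share its cell type.

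**Figure D1:**
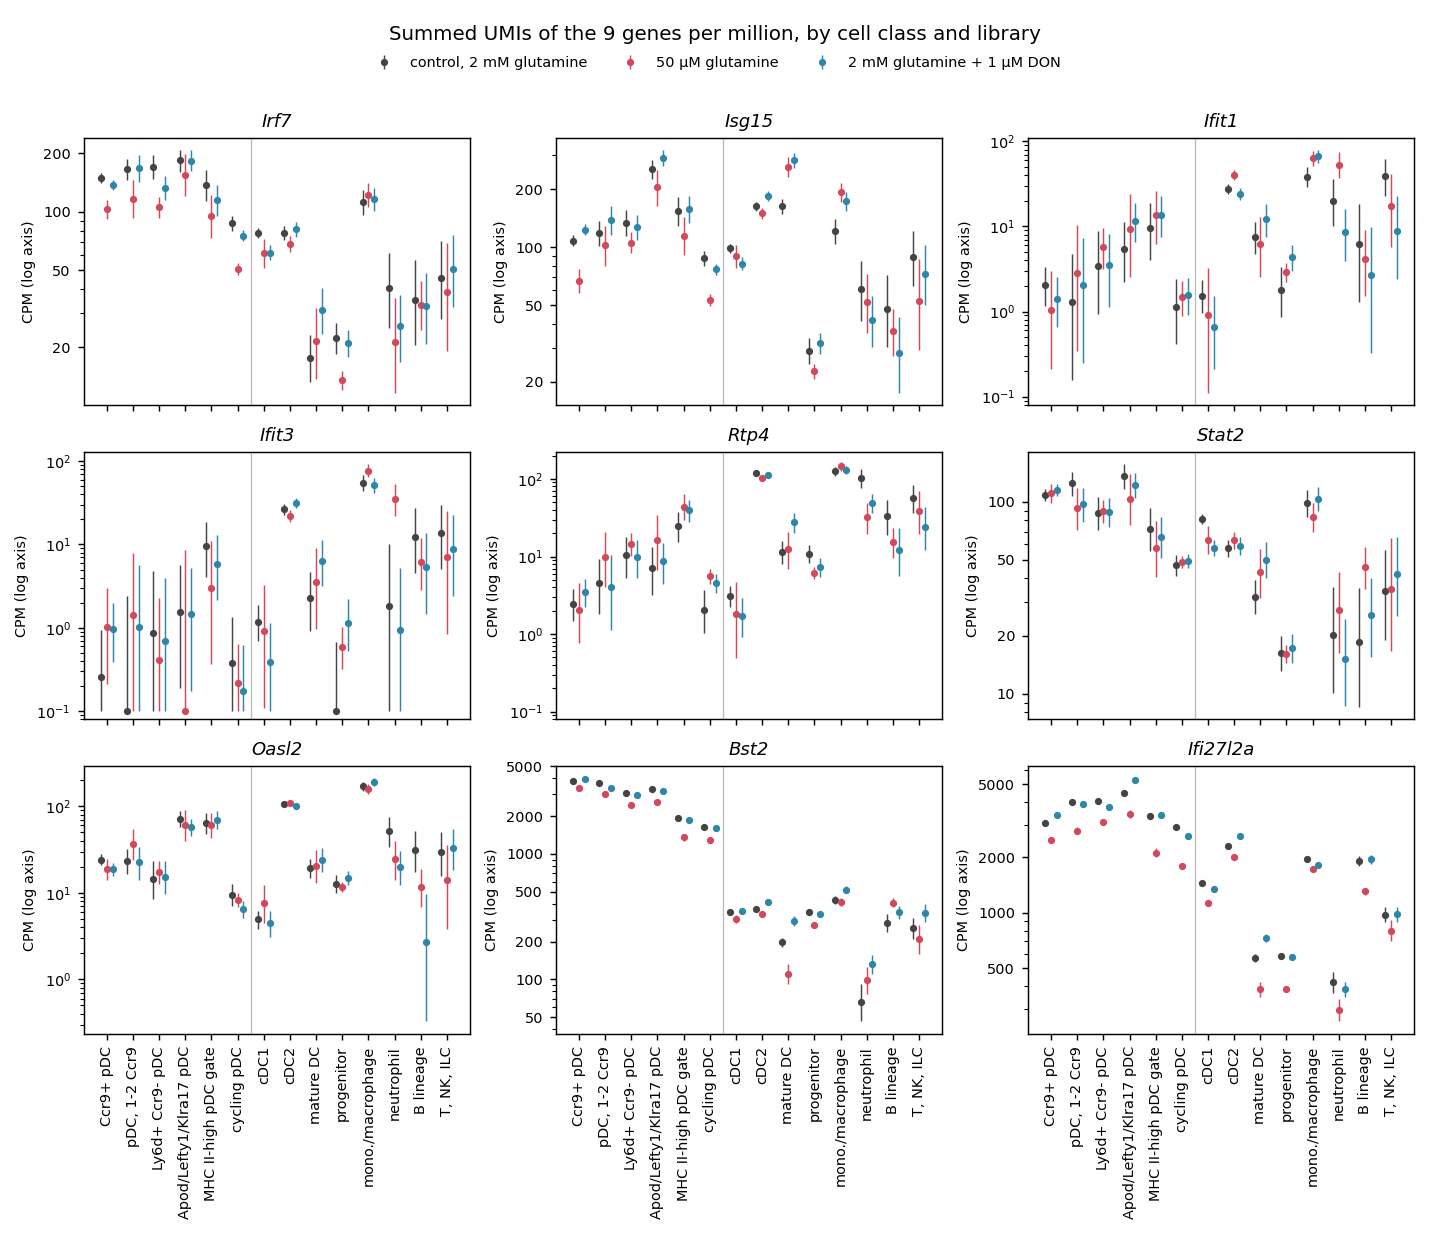
Level of each of the 9 genes (CPM, log axis, 1 panel per gene) in 14 cell classes of the control, 50 µM glutamine and 1 µM DON libraries; points are class sums, bars exact Poisson 95% intervals, and levels or lower bounds under 0.1 CPM are drawn at 0.1. The vertical grey line parts the 6 pDC subsets from the other classes: Bst2 in the control library lies between 1652 and 3820 CPM to its left and between 65.9 and 432 CPM to its right.

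Irf7 encodes the interferon regulatory factor that pDC keep at a high resting level (chromosome 7, 141262706 to 141266481, minus strand, GENCODE gene model on GRCm38). In the control library its level ran from 184 CPM in the Apod subset through 149 CPM in Ccr9-positive pDC to 112 CPM in monocytes or macrophages, with each neighbour in that order overlapping the next. Cycling pDC at 87.3 CPM, cDC2 at 77.7 CPM and cDC1 at 77.6 CPM came after a gap, and mature DC were lowest at 17.7 CPM. Stat2, which encodes a transcription factor of the interferon-activated complex (chromosome 10, 128270559 to 128292849), ran in the same library from 136 CPM in the Apod subset to 16.3 CPM in progenitors, and all neighbours in its order overlapped.

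Bst2 encodes tetherin, a membrane protein that holds budding virus on the cell surface and is itself a widely used pDC surface marker (chromosome 8, 71534255 to 71537456). Its control level was 3820 CPM in Ccr9-positive pDC (95% interval 3777 to 3864) and 3697 CPM in pDC with 1 or 2 Ccr9 UMIs, whose intervals overlapped. The Apod subset at 3289 CPM, the Ly6d-positive subset at 3073 CPM, the MHC class II-high subset at 1922 CPM and cycling pDC at 1652 CPM each stood apart from the next. The highest class outside the pDC gate was monocytes or macrophages at 432 CPM. Ifi27l2a, a small interferon-induced protein of incompletely known function (chromosome 12, 103442167 to 103443680), was spread more widely. It stood at 4500 CPM in the Apod subset, 4055 CPM in Ly6d-positive pDC and 3099 CPM in Ccr9-positive pDC, but also at 2314 CPM in cDC2, 1445 CPM in cDC1 and 419 CPM in neutrophils. Reads of Ifi27l2a could be split with its near copy Ifi27l2b, so its level is uncertain to that extent.

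Isg15 encodes a ubiquitin-like protein that is joined to other proteins during the antiviral response (chromosome 4, 156199424 to 156200818). Its highest control level, 254 CPM in the Apod subset (227 to 283), stood apart from the 163 CPM of mature DC and of cDC2. From mature DC down to progenitors, which were lowest at 29.0 CPM, each class overlapped its neighbour. The Apod subset was first in the control order of Isg15, Irf7, Stat2 and Ifi27l2a, although its first place overlapped the next class for Irf7 and Stat2.

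Ifit1 and Ifit3 encode proteins that bind foreign RNA or its binding partners (chromosome 19, 34640871 to 34650009 and 34583531 to 34588731). In the control library Ifit3 stood at 54.5 CPM in monocytes or macrophages (43.5 to 67.4) and 26.3 CPM in cDC2 (22.7 to 30.4), but at 1.18 CPM in cDC1 and 0.26 CPM in Ccr9-positive pDC, the latter from only 2 UMIs. Ifit1 stood at 38.5 and 27.4 CPM in the first pair of classes and at 1.53 and 2.05 CPM in the second. Reads of Ifit3 could be split with its near-identical neighbour Ifit3b, and those of Ifit1 with Ifit1bl1, so these levels are uncertain.

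Rtp4 encodes a chaperone for receptors (chromosome 16, 23520291 to 23614222), and Oasl2 an oligoadenylate synthetase-like protein (chromosome 5, 114896936 to 114912234). Rtp4 stood at 126 CPM in monocytes or macrophages, 120 CPM in cDC2 and 103 CPM in neutrophils, with overlapping intervals, against 3.07 CPM in cDC1 and 2.44 CPM in Ccr9-positive pDC. Oasl2 was 169 CPM in monocytes or macrophages, 105 CPM in cDC2 and 70.9 CPM in the Apod subset, and was lowest in cDC1 at 4.95 CPM. Inside the pDC gate, Oasl2 was higher in the Apod subset and in the MHC class II-high subset (63.9 CPM) than in Ccr9-positive pDC (24.0 CPM), without overlap of the intervals. These subsets also differed in markers. In control the 14 cDC2 markers summed to 3275 CPM in the MHC class II-high subset, 1334 CPM in the Apod subset and 762 CPM in Ccr9-positive pDC, and the 17 pDC markers to 2455, 5819 and 12339 CPM. The MHC class II-high subset of the control thus held more cDC2 than pDC marker UMIs, and the part of cDC2 RNA in its levels was not tested.

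With 50 µM glutamine, 4 of the 9 genes were below control in all 6 pDC subsets: Irf7, Isg15, Bst2 and Ifi27l2a. The other members were not. This was not particular to pDC: Irf7, Isg15 and Bst2 were each below control in 6 of the 8 other classes, and Ifi27l2a in all 8. For Irf7, Isg15 and Bst2 the intervals were apart below control in 2, 0 and 4 of these classes, and above it in 0, 2 and 1. Differences are given as log2 ratios with 5 CPM added to both levels, and a gene with at least 20 CPM in either library counts as called when the ratio is at least 1.5 times in either direction. In Ccr9-positive pDC 1 of the 6 members measured was called lower and 0 higher, against 1.78% of all 6008 genes called lower and 4.53% called higher. The median log2 ratio of the 9 members was -0.23, but that value is Ifit1's own, from 3 UMIs at 50 µM, so it is not read against the 0.13 over all genes tested. The median over all genes was positive in all 14 classes at 50 µM, from 0.03 in monocytes or macrophages to 0.32 in neutrophils, so a log2 ratio of 0 there lies below the middle of all genes.

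Irf7 in Ccr9-positive pDC was 149 CPM in the control library (141 to 158), 103 CPM at 50 µM (91.8 to 115) and 138 CPM with DON (129 to 147). The 50 µM level lay below both others without overlap, and the control and DON intervals overlapped. The ratio of 50 µM to control was 0.692 (exact conditional 95% interval 0.607 to 0.786). In Ly6d-positive pDC Irf7 was 170 CPM in control, 106 CPM at 50 µM and 133 CPM with DON, and in cycling pDC it was 87.3, 50.6 and 75.2 CPM in that order. Both 50 µM levels were called lower, at log2 ratios of -0.66 and -0.73, where 2.82% and 2.11% of all genes were called lower and 8% and 1.85% higher. Over the 6 pDC subsets the log2 ratio of Irf7 at 50 µM ran from -0.73 to -0.24, and the intervals were apart in 4.

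Isg15 in Ccr9-positive pDC was 108 CPM in control (101 to 116), 67.3 CPM at 50 µM (58.1 to 77.4) and 123 CPM with DON (115 to 132). Only the 50 µM interval stood apart from the control, with a log2 ratio of -0.65. In cycling pDC it was 87.6, 53.1 and 77.0 CPM, a log2 ratio of -0.67 at 50 µM. In the other 4 subsets the log2 ratios at 50 µM were nearer 0, the nearest at -0.20, and the intervals overlapped.

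Bst2 in Ccr9-positive pDC was 3820 CPM in control, 3376 CPM at 50 µM (3309 to 3443) and 3960 CPM with DON (3915 to 4007). All 3 intervals stood apart, with 50 µM lowest and DON highest, but the differences were small, at log2 ratios of -0.18 and 0.05. Over the 6 subsets the 50 µM log2 ratio of Bst2 ran from -0.49 to -0.18, with intervals apart in 6 and no call. The share of all genes called lower and higher at 50 µM was 3.77% and 12.3% in pDC with 1 or 2 Ccr9 UMIs and 5.34% and 16.7% in the Apod subset, where no member was called. Ifi27l2a in Ccr9-positive pDC was 3099, 2493 and 3422 CPM in control, 50 µM and DON, and in cycling pDC it was 2913, 1806 and 2618 CPM. Its 50 µM level was below control in all 14 classes compared, with intervals apart in 13 and log2 ratios from -0.69 to -0.17. It was called in 3 classes: cycling pDC (-0.69), MHC class II-high pDC (-0.67, where 5.46% of all genes were called lower) and progenitors (-0.60, where 1.07% were and 1.61% were called higher). With DON no member was called in progenitors, where 0.231% of all genes were called higher and 0.284% lower.

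**Figure D2:**
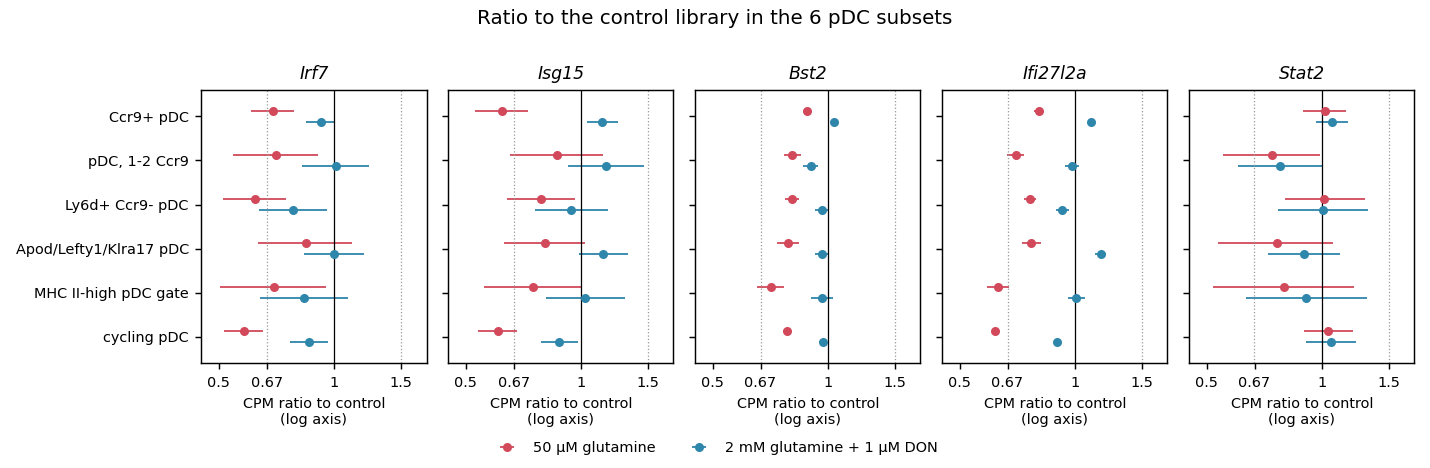
CPM ratio of each treated library to the control library (log axis, no pseudocount) for Irf7, Isg15, Bst2, Ifi27l2a and Stat2 in the 6 pDC subsets, with exact conditional 95% intervals and dotted lines at 1.5-fold. The 50 µM points of Irf7, Isg15, Bst2 and Ifi27l2a lie left of equality in every subset, with Irf7 in Ccr9-positive pDC at 0.692, while the DON points of the 5 genes lie on both sides of it, from 0.778 to 1.17.

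Stat2, by contrast, was 109 CPM in control, 111 CPM at 50 µM and 116 CPM with DON in Ccr9-positive pDC, with overlapping intervals. Its 50 µM log2 ratio over the 6 subsets ran from -0.41 to 0.05 with no intervals apart. Oasl2 in Ccr9-positive pDC was 24.0, 18.6 and 18.6 CPM, again with overlapping intervals. Ifit1, Ifit3 and Rtp4 were under 4 CPM there in every library, and a difference was not detectable at this depth. The MHC class II-high subset had 1 higher call, Rtp4 at 24.8 CPM in control, 43.9 CPM at 50 µM and 39.3 CPM with DON, but the intervals overlapped and 12.9% of all genes were called higher in that comparison.

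The summed pDC markers were not lower at 50 µM in Ccr9-positive pDC. Siglech, Ccr9 and most of the other pDC markers were used to gate these cells, however. Their levels are partly set by the gate and cannot be set against those of the members. In Ccr9-positive pDC all 17 pDC markers had UMIs in every library, and their summed level was 12339 CPM in control, 14827 CPM at 50 µM and 12363 CPM with DON. Siglech alone was 1968, 2749 and 1994 CPM. In the same cells the 15 monocyte or macrophage markers summed to 695, 666 and 576 CPM. What these shifts contribute to the members' levels was not tested.

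The share of cells with a UMI showed the same order for Irf7 and Isg15. After each cell was thinned to 2000 UMIs, Irf7 was seen in 25.5% of Ccr9-positive pDC in control (exact binomial 95% interval 23.2 to 27.8), 19.1% at 50 µM (16.0 to 22.5) and 23.3% with DON. Without thinning the shares were 48.9%, 34.5% and 51.9%, from cells of unequal depth. In mature DC, the class with least Irf7 in control, the thinned share was 3.1% in control and 5.24% at 50 µM. Isg15 was seen in 14.9% of thinned Ccr9-positive pDC in control, 9.73% at 50 µM and 17.3% with DON, and Bst2 in 99.6% to 99.7%, against 8.06% of thinned control neutrophils. At most 3 cells of that subset per library fell under 2000 UMIs and were left out.

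**Figure D3:**
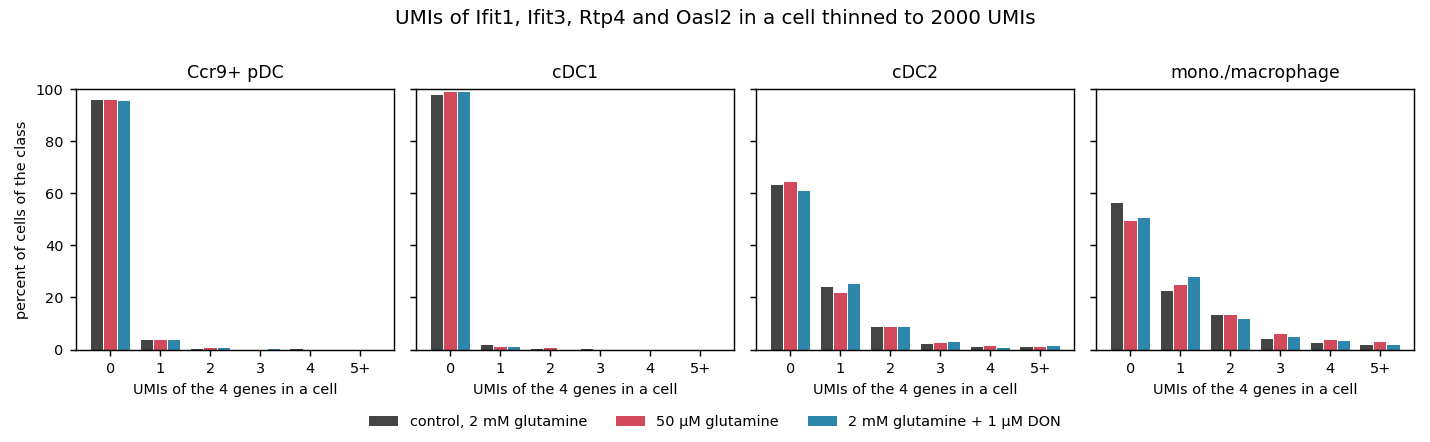
Cells by their summed UMIs of Ifit1, Ifit3, Rtp4 and Oasl2 after thinning each cell to 2000 UMIs, in Ccr9-positive pDC, cDC1, cDC2 and monocytes or macrophages of each library. Cells with 0 UMIs make up 95.8% of control Ccr9-positive pDC and 97.9% of control cDC1 but 63.3% of control cDC2 and 56.1% of control monocytes or macrophages.

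With DON, no member was called in any of the 6 pDC subsets, and the background was low too. The shares of all genes called higher and lower with DON were 0.213% and 0.622% in Ccr9-positive pDC, 4.04% and 3.44% in pDC with 1 or 2 Ccr9 UMIs, and 2.47% and 2.3% in Ly6d-positive pDC. They were 3.17% and 2.5% in the Apod subset, 4.42% and 3.48% in the MHC class II-high subset, and 0.017% and 0.391% in cycling pDC. In Ccr9-positive pDC 6 members and 5630 genes in all were measured, and the median log2 ratio was 0.01 over all genes. Irf7 was below control in 5 of 6 subsets, at log2 ratios from -0.34 to 0.02, and Isg15 in 2 of 6. Both treatments were set against the same control library, so their values are given side by side and not as separate evidence.

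In cDC1, which carried little Ifit1, Ifit3, Rtp4 or Oasl2, the measured members lay below control under both treatments, except Bst2 with DON, at 350 CPM against 343 CPM in control. Of the 5 members measured, 0 were called in either comparison, where 2.53% of all genes were called higher and 1.17% lower at 50 µM, and 0.55% higher and 1.06% lower with DON. Irf7 was 77.6 CPM in control (73.1 to 82.2), 61.2 CPM at 50 µM (51.3 to 72.4) and 61.6 CPM with DON (56.1 to 67.4). Stat2 was 81.5, 63.5 and 57.5 CPM in that order, with both treated intervals below that of the control. Isg15 was 98.7, 89.7 and 82.4 CPM, and only the DON interval stood apart from the control. The median log2 ratio over all genes was 0.05 at 50 µM and 0.10 with DON. Markers of other cells differed as well: in cDC1 the 15 monocyte or macrophage markers summed to 933 CPM in control, 1724 CPM at 50 µM and 707 CPM with DON, and the 14 cDC2 markers to 382, 741 and 581 CPM. The 17 pDC markers summed to 201, 259 and 221 CPM and the 13 neutrophil markers to 95.2, 73.4 and 137 CPM. What these contribute was not tested. Cycling cells, by the UMI limits used for cycling pDC, made up 37.8% of cDC1 in control, 40.3% at 50 µM and 53.1% with DON. The cDC1 compared thus differed in cycling too.

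In cDC2 all 9 members were measured and none was called, where 6.23% of all genes were called higher and 1.48% lower at 50 µM, and 1.31% and 0.346% with DON. Ifit1 was 27.4 CPM in control (23.7 to 31.6), 40.5 CPM at 50 µM (35.6 to 46.0) and 24.2 CPM with DON (20.4 to 28.4). The 50 µM level stood above both others, at a log2 ratio of 0.49. Rtp4 ran the other way, at 120 CPM in control (112 to 129), 102 CPM at 50 µM (93.8 to 110) and 112 CPM with DON, and Ifit3 was 26.3, 22.1 and 31.5 CPM with overlapping intervals. Isg15 in cDC2 was 163 CPM in control, 150 CPM at 50 µM and 185 CPM with DON (175 to 196), where the DON interval stood above the control. That rise was not seen in all cDC2 when they were split by Cd209a, a cDC2 gate marker. In cells with no Cd209a UMI, Isg15 was 143 CPM in control (130 to 157) and 214 CPM with DON (198 to 231). In cells with a Cd209a UMI it was 178 CPM (165 to 191) and 157 CPM (143 to 172), lower with DON but with overlapping intervals. The median log2 ratio of the 9 members at 50 µM was -0.13, but it was 0.13 in cDC2 gated with more markers.

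Markers of other cell types moved with the 50 µM library in cDC2. The 15 monocyte or macrophage markers all had UMIs there, and summed to 1436 CPM in control, 4193 CPM at 50 µM and 2178 CPM with DON. The 13 neutrophil markers summed to 244, 576 and 328 CPM. Cycling cells made up 15.7%, 25.0% and 23.8% of cDC2 in the same order. Without the cDC1 and cDC2 cells that held a monocyte or macrophage gate marker, the median log2 ratio of the members at 50 µM was -0.22 in cDC2.

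Within cDC2 Ifit1 and Rtp4 were each seen in a minority of thinned cells. Thinned cells with Ifit1 made up 4.11% of control cDC2 (2.91 to 5.62), 7.21% at 50 µM (5.49 to 9.26) and 3.84% with DON. In cDC1, at the same depth of 2000 UMIs, the share was 0.224% in control and 0.157% with DON. At 50 µM it was 0 of 231 cells, which allows up to about 1.30%, taken as 3 divided by the number of cells. Without thinning the cDC2 shares were 14.4%, 15.4% and 14.1%. Rtp4 was seen in 21.3%, 18.9% and 21.8% of thinned cDC2, against 0.522%, 0.433% and 0.157% of thinned cDC1.

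Some of the members were seen more often in cDC2 cells that also held Ifit1. In control, Isg15 was seen in 64.9% of the 37 cells with Ifit1 (47.5 to 79.8) and 23.4% of the 864 without (20.6 to 26.3), after thinning. At 50 µM the shares were 60.7% of 56 and 20.9% of 721, and with DON 48.0% of 25 and 26.0% of 626. The intervals were apart in control and at 50 µM and overlapped with DON. Ifit3 was seen in 24.3%, 19.6% and 40.0% of the cells with Ifit1 and in 3.59%, 2.08% and 4.47% of those without. Oasl2 was seen in 37.8%, 41.1% and 48.0% against 15.3%, 16.9% and 19.5%, and for both genes the intervals were apart in every library. Irf7 had intervals apart in control and at 50 µM. For Rtp4 the control intervals overlapped, at 21.6% and 21.3%, and the intervals were apart at 50 µM (39.3% and 17.3%) and with DON (48.0% and 20.8%). Stat2 had intervals apart only at 50 µM, at 25.0% and 10.1%. Bst2 and Ifi27l2a had overlapping intervals in all 3 libraries, with Ifi27l2a in control at 89.2% and 85.9%. Cells with 5 or more thinned UMIs of Ifit1, Ifit3, Rtp4 and Oasl2 were few in every library, at 0.888%, 1.16% and 1.54% of cDC2. The highest 1% of cDC2 cells held between 10.0% and 11.6% of these UMIs, so the class level did not rest on those cells alone.

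In mature DC, which express Ccr7 and Fscn1 and are known for migration to lymph nodes, all 9 members were above control in the DON library. Of the 7 measured, 3 were called higher and 0 lower, against 5% and 1.18% of all 5257 genes. Isg15 was 163 CPM in control (149 to 178), 262 CPM at 50 µM (233 to 294) and 283 CPM with DON (259 to 309), so both treated levels stood above the control and overlapped each other. Irf7 was 17.7, 21.5 and 31.0 CPM, and Rtp4 was 11.4, 12.5 and 27.6 CPM, where for each only the DON interval stood apart from the control. Bst2 was 198 CPM in control, 111 CPM at 50 µM (92.3 to 132) and 291 CPM with DON (266 to 318), with 50 µM lowest and DON highest and no overlap.

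The median log2 ratio of the 9 members in mature DC with DON, 2 of them under 20 CPM in both libraries, was 0.57, and that over all genes tested was 0.08. At 50 µM 1 of 6 measured members was called higher (Isg15) and 1 lower (Bst2), where 6.45% of all genes were called higher and 5.26% lower. Thinned cells with Isg15 made up 16.4%, 26.7% and 25.2% of mature DC in control, 50 µM and DON, and 29.3%, 38.3% and 45.9% without thinning, against 5.79%, 4.28% and 5.47% of thinned progenitors, the class with least Isg15 in control and at 50 µM.

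Several lists of other cells' markers were also highest in the mature DC of the DON library. The 17 pDC markers summed to 403 CPM in control, 443 CPM at 50 µM and 703 CPM with DON, with Klk1b27 at 0 in both treated libraries and Klk1 at 0 at 50 µM. The 15 monocyte or macrophage markers summed to 398, 301 and 782 CPM, and the 14 cDC2 markers to 2772, 2817 and 3371 CPM. The 13 neutrophil markers were highest at 50 µM instead, at 134, 366 and 182 CPM. In cells without a Siglech UMI, an alternative chosen after seeing the data, the DON log2 ratios were 0.92 for Isg15, 0.94 for Rtp4 and 0.62 for Irf7. In all mature DC they were 0.77, 0.99 and 0.67. Siglech itself was 26.8 CPM in control and 64.3 CPM with DON, so a cell without a UMI of it can still hold pDC RNA. With predicted doublets kept, the DON log2 ratio was 0.57 for Rtp4 and 0.30 for Irf7. The part of pDC or monocyte RNA in these levels was not tested.

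Monocytes or macrophages of the culture had all 9 members at 20 CPM or more. Ifit1 was 38.5 CPM in control (29.4 to 49.5), 62.9 CPM at 50 µM (51.2 to 76.5) and 66.9 CPM with DON (55.7 to 79.6), with both treated intervals above the control. Isg15 was 121, 194 and 173 CPM in that order, also with both treated intervals above the control. At 50 µM these were the 2 members called higher, where 5.5% of all genes were, and none was called lower, where 5.16% were. With DON Ifit1 was the only call, where 3.22% of all genes were called higher and 1.77% lower. When classes were taken from clusters in place of the gate, Isg15 at 50 µM had a log2 ratio of -0.10.

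The class was split by transcripts of complement C1q, which are made by macrophages more than by monocytes. C1qa, C1qb and C1qc are among the 11 gate markers of this class, so cells with no C1q UMI passed on the other markers. Fcgr1, which is 1 of those, also stands in the list of other interferon-induced genes. What this selection contributes to the levels was not tested. In the cells with no C1q UMI, Isg15 in control was 121 CPM (93.1 to 155, 73 cells), 302 CPM at 50 µM (264 to 344, 107 cells) and 303 CPM with DON (263 to 346, 75 cells). In cells with a C1q UMI it was 121, 97.7 and 94.6 CPM in 215, 136 and 239 cells, with overlapping intervals. Ifit1 in the cells with no C1q UMI was 19.2, 77.4 and 76.0 CPM, and in the others 48.1, 50.0 and 61.3 CPM. The 17 pDC markers in the whole class summed to 571, 919 and 773 CPM, and their part was not tested. Cycling cells made up 7.99%, 15.2% and 15.6% of the class in control, 50 µM and DON.

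**Figure D4:**
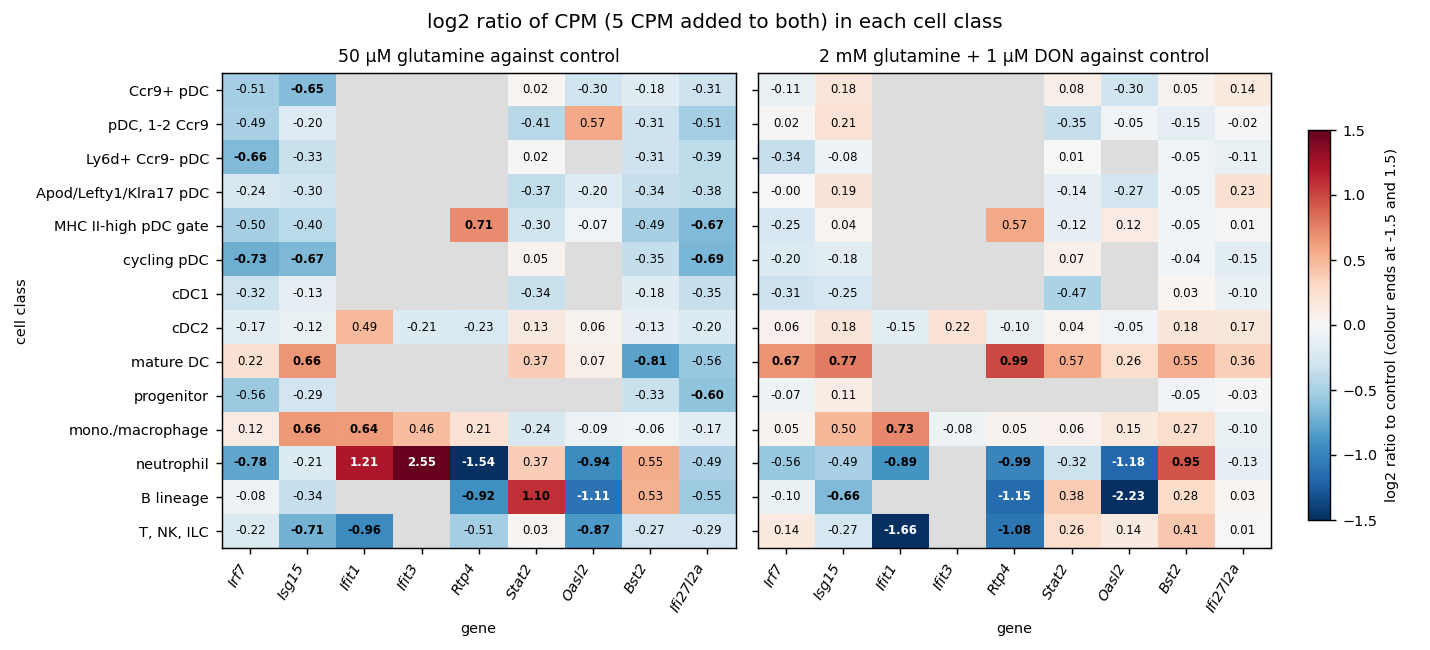
Log2 ratio of each treated library to the control library (5 CPM added) for the 9 genes in 14 classes, with 50 µM glutamine and 1 µM DON as separate panels; colours end at 1.5 and -1.5, bold values are at least 1.5 times apart, and grey cells had under 20 CPM in both libraries or at most 3 UMIs in both. The Ifi27l2a values at 50 µM are negative in all 14 classes, from -0.69 to -0.17.

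Over the 14 classes together, 7 member levels were called higher and 16 lower at 50 µM, and 5 higher and 8 lower with DON. A share of all genes over the 14 classes together was not computed, so these totals are not read as a result about the members. Neutrophils, B lineage cells and T, NK or innate lymphoid cells, which had 50 to 288 cells per library, held many of these calls, and most rested on few UMIs. In neutrophils 2 of 9 measured members were called higher and 3 lower at 50 µM, where 31.4% and 4.11% of all genes were. With DON 1 of 8 was called higher and 3 lower, where 15% and 5.07% of all genes were. In B lineage cells 1 of 7 was called higher and 2 lower at 50 µM, where 17.8% and 6.32% were. With DON 0 of 7 were called higher and 3 lower there, where 7.62% and 12.7% were. In T, NK or innate lymphoid cells 0 of 8 were called higher and 3 lower at 50 µM, where 22.2% and 10.4% were. With DON 0 of 8 were called higher and 2 lower in that class, where 12.3% and 10.1% were. Rtp4 in neutrophils was 103 CPM in control (77.5 to 133), 32.0 CPM at 50 µM (19.8 to 48.9) and 49.3 CPM with DON (36.9 to 64.7), with both treated intervals below the control. Ifit3 there was 1, 23 and 1 UMIs, a ratio of 19.1 at 50 µM with a counting interval of 3.1 to 788. With classes from clusters that difference turned, to a log2 ratio of -0.48 in place of 2.55, and it was 0.65 without cycling cells and 0.53 without the 1% of cells with most member UMIs.

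In whole libraries, the share of each class enters the level as well. Irf7 was 86.7 CPM over all control cells, 45.2 CPM at 50 µM and 76.6 CPM with DON, and Ifi27l2a was 2104, 1205 and 2102 CPM. At 50 µM the log2 ratio of these levels, with 5 CPM added to both, was -0.87 for Irf7. It was -0.51 when the 50 µM class levels were weighted by the control library's shares of UMIs per class, and -0.25 when the control levels were weighted by the 50 µM shares. For Ifi27l2a the same 3 values were -0.80, -0.58 and -0.12, and for Stat2 they were -0.53, -0.15 and -0.43. Cells in no gate enter here as 1 class, although 34.3% of them were cycling in control and 50.0% at 50 µM, so a change in make-up inside that class counts as a change of its level. With DON the observed log2 ratios of the 9 genes lay between -0.19 and 0.06.

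**Figure D5:**
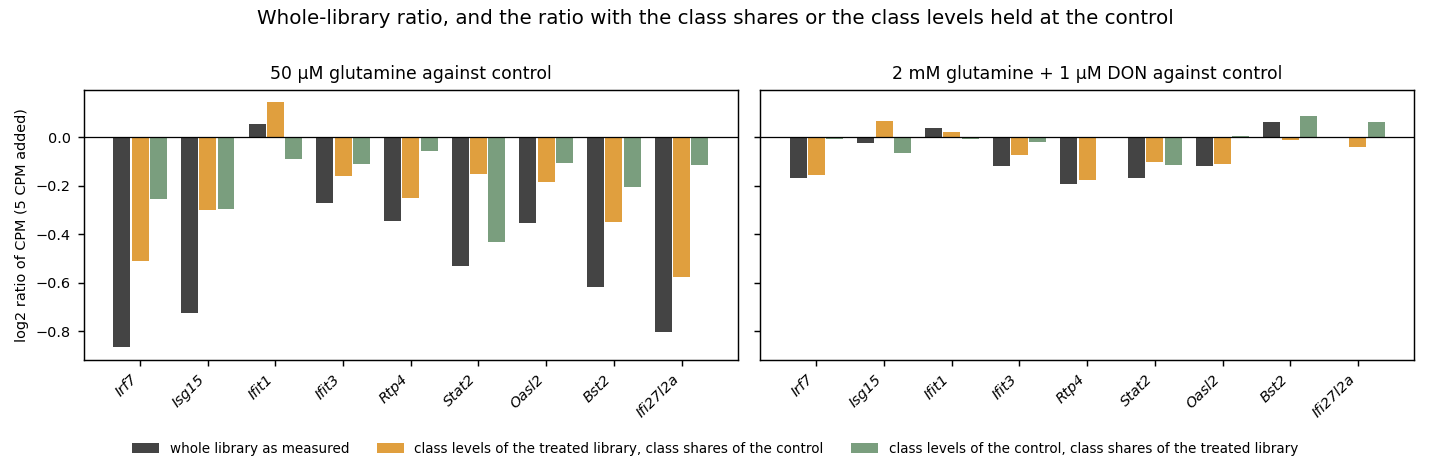
Log2 ratio of each treated library to the control library over all cells for the 9 genes: as observed, with the treated class levels at the control shares of classes, and with the control class levels at the treated shares. At 50 µM the bars of Irf7 stand at -0.87, -0.51 and -0.25.

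The interferon genes themselves were nearly absent. The 18 type I interferon genes had 2 UMIs in the control library, 4 at 50 µM and 3 with DON, all from Ifnz apart from 1 UMI each of Ifnab and Ifnk at 50 µM. Ifnb1 and all Ifna genes other than Ifnab had 0 UMIs. For each of them this allows a UMI in up to about 0.0317%, 0.0327% and 0.0359% of cells in the 3 libraries. This approximate bound is 3 divided by the number of cells. Ifng, the type II interferon, had 2, 2 and 11 UMIs.

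Of 168 further symbols of the pathway, 162 were found. The 8 measured receptor and kinase genes had no call in either comparison in Ccr9-positive pDC or cDC1. Ifnar1, the first receptor chain, was 248, 265 and 239 CPM in Ccr9-positive pDC of control, 50 µM and DON, and Ifnar2 was 441, 459 and 457 CPM. In cDC2 Ifnar1 was called higher at 50 µM, at 57.0 CPM in control (51.6 to 62.8), 103 CPM at 50 µM (94.8 to 111) and 64.0 CPM with DON. It was 1 of 8 measured, where 6.23% of all genes were called higher. The monocyte or macrophage markers in cDC2 stood at 4193 CPM at 50 µM against 1436 CPM in control, and their part was not tested. All 8 transcription factors listed were measured and none was called in Ccr9-positive pDC, cDC1 or cDC2. Irf9 was 78.0, 89.3 and 75.8 CPM in Ccr9-positive pDC, where its 50 µM interval overlapped that of the control.

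Among the sensors and adaptors, Slc15a4, a lysosomal transporter needed for TLR7 and TLR9 signals, was called higher in Ccr9-positive pDC at 50 µM, at 78.7 CPM in control and 135 CPM at 50 µM. It was the only call of the 10 measured, where 4.53% of all genes were called higher and 1.78% lower. Tlr7 itself was 80.7, 123 and 82.1 CPM in control, 50 µM and DON, close to but under the 1.5-fold limit. In cDC2 Traf3, a signalling adaptor, was called higher at 50 µM at 12.7 CPM in control and 24.8 CPM. It was 1 of 13 measured, where 6.23% of all genes were called higher. In cDC1 Zbp1, a nucleic acid sensor, was called lower with DON at 28.0 CPM in control and 15.5 CPM. It was 1 of 10 measured, where 1.06% of all genes were called lower. No negative regulator was called in these 3 classes. Usp18, which removes ISG15 and blocks the receptor, was 47.4, 33.5 and 45.6 CPM in Ccr9-positive pDC.

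Of the list of other interferon-induced genes, 54 were measured in Ccr9-positive pDC at 50 µM. There 7 were called lower and 0 higher, where 1.78% and 4.53% of all genes were, with a median log2 ratio of -0.02 against 0.13 over all genes. Ms4a4c was 26.1 CPM in control and 9.66 CPM at 50 µM, and Isg20, an RNA exonuclease, was 20.5 and 7.59 CPM. Ifitm3 and Ifitm1, which block virus entry, were 72.0 and 37.6 CPM and 62.2 and 35.9 CPM. With DON 0 of 53 were called in this subset. In Ly6d-positive pDC 8 of 53 were called lower and 2 higher at 50 µM, where 2.82% and 8% of all genes were, and 6 of 52 lower and 0 higher with DON, where 2.3% and 2.47% were.

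In the conventional dendritic cells the same list gave other counts. In cDC1 5 of 54 were called higher and 1 lower at 50 µM, where 2.53% and 1.17% of all genes were. The monocyte or macrophage markers in these cells stood at 1724 CPM at 50 µM against 933 CPM in control, and their part was not tested. Cxcl10, a chemokine for T cells, stood at 5.23 CPM in the control library (4.11 to 6.55) and at 35.8 CPM in the 50 µM library (28.3 to 44.6), and Ifitm1 was 742 and 1262 CPM there. Nmi was 25.4 and 13.1 CPM. With DON 1 of 53 was called in each direction, Ms4a4c at 51.4 CPM in control and 83.9 CPM, and Phf11b at 111 and 67.8 CPM. In cDC2 4 of 62 were called higher at 50 µM, near the 6.23% of all genes, and 2 lower, where 1.48% were, with Cxcl10 at 4.34 and 22.1 CPM, Apobec3, an antiviral deaminase, at 112 and 190 CPM, and Gbp7 at 44.1 and 22.8 CPM. The rise of the monocyte or macrophage markers in cDC2 at 50 µM, given above, applies here too, and its part was not tested. With DON 0 of 62 were called in cDC2. Ifitm1 was thus lower at 50 µM in Ccr9-positive pDC and higher in cDC1, a difference that was not tested.

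Outside the members, 8 genes were most like the mean of the 9 members over the 44 class sums by Pearson's r on standardised log2(CPM + 5), out of 7965 genes. These were Slfn5 (0.87), Dnajb14 (0.84), Parp14 (0.84), Ctss (0.83), Picalm (0.83), Evi2a (0.83), Ubl3 (0.81) and Borcs6 (0.81). Slfn5 and Parp14 also stand in the list of other interferon-induced genes. Slfn5 was 190 CPM in control, 116 CPM at 50 µM and 180 CPM with DON in Ccr9-positive pDC, and 231, 253 and 238 CPM in cDC2.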

How the data were processed

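The data were 3 single-cell 3′ gene expression libraries, 1 per culture condition. The deposited values are raw UMI counts per gene and barcode, whole numbers with no normalization, made with Cell Ranger against mm10. The version is 3.1.0 per the submitters' processing notes and 6.0.0 per the file headers. Of 32285 genes, 99.8451% matched the GENCODE annotation used for positions, and 0 columns were left unmapped.

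The 9 members, the marker lists and the 6 pathway lists were chosen with earlier results of these data known. So were the gates and the splits by C1q and Cd209a. Barcodes were dropped below 1000 UMIs, below 500 genes or above 10% mitochondrial UMIs, which removed 75 to 168 per library. Doublets were removed with Scrublet in scanpy 1.11.5 (expected rate 0.08), which marked 8.62%, 4.97% and 5.85% of control, 50 µM and DON cells. A cell entered a class by the number of that class's marker genes with a UMI (at least 2, 3 or 4), with 2 Siglech UMIs for pDC and 10 granule gene UMIs for neutrophils, and cells that passed more than 1 dendritic cell gate were left out. Cells with at least 5 mitosis or 10 S phase UMIs in the pDC gate were called cycling pDC.

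UMIs were summed per class and library and scaled to CPM with exact Poisson intervals (Python 3.11.15, scipy 1.17.1). Shares of cells used exact Clopper-Pearson intervals after thinning to 2000 UMIs. The scripts were tested on simulated data. All 9 members were described in every class. From each pathway list, the named genes were up to 4 with the largest absolute log2 ratio in Ccr9-positive pDC, cDC1 and cDC2, given where at least 1.5 times apart, while receptors, transcription factors and ligands could be named at any level. Tlr7, Usp18 and the members' near copies were named after their values were seen. Alternatives changed the scaling, pseudocount, doublets, depth and mitochondrial limits, gates, clusters, cycling cells, top cells and averaging. Cells with no gate (2482 to 2757 per library) entered only whole-library values.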

Additional observations from a re-analysis of the deposited data

Results flagged for a closer look

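Isg15 at 50 µM glutamine differed from control in opposite directions between classes: log2 ratios with 5 CPM added were -0.65 in Ccr9-positive pDC and -0.67 in cycling pDC, but 0.66 in mature DC and 0.66 in monocytes or macrophages. Each of these 4 ratios was at least 1.5 times with intervals of the class levels apart. The direction in monocytes or macrophages was reversed with classes from clusters, as given below. In that class the rise was in cells with no C1q UMI, at 121 CPM in control and 302 CPM at 50 µM. Cells with a C1q UMI stood at 121 and 97.7 CPM. Rtp4 with DON stood at a log2 ratio of 0.99 in mature DC and -0.99 in neutrophils. With 1 library per condition the differences between classes were not tested.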

How the results depend on the processing

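No paired analysis was possible because each condition is 1 library with no replicate, so leaving out a replicate was not possible either. At 50 µM, the median log2 ratio of the 9 members in cDC2, -0.13 as reported, was -0.26 with median-of-ratios scaling, 0.13 with a stricter gate and -0.33 with classes from clusters. The member levels called higher with DON over the 14 classes, 5 as reported, numbered 2 with doublets kept, 10 with a stricter gate and 3 without cells that held a Siglech UMI in classes other than pDC, an alternative chosen after seeing the data. Under every alternative run, the other medians stayed between the medians of the members' lower and upper counting bounds, and the other counts within 1.5 times. Those bounds reached from below to above control for every median, so a change of side was not checked. Of the pDC subsets below control at 50 µM, Irf7 and Isg15 had 5 of 6 in the lowest case, and Bst2 and Ifi27l2a had 6 of 6 throughout. With a filter of 5 in place of 20 CPM, the genes of all kinds called in Ccr9-positive pDC at 50 µM numbered 411 higher and 167 lower, against 272 and 107, and in cDC2 621 and 129, against 363 and 86, and such counts rose in the other classes too. Counts over 14 classes without cycling cells were not run, since the cycling pDC class is then empty.

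Some single ratios changed direction. With classes from clusters, Isg15 at 50 µM in monocytes or macrophages was -0.10, and in neutrophils Ifit1 was -0.20 and Ifit3 -0.48. Ifit1 at 50 µM in neutrophils was also -0.13 without the 1% of cells with most member UMIs, -0.80 without cycling cells and -0.17 as a mean over cells. Bst2 with DON in neutrophils was -0.25 with doublets kept. The cause was not tested. Depth limits Ifit1, Ifit3 and Rtp4 in pDC and cDC1, and all members in lymphoid cells and neutrophils.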
